A study of Mus musculus with 8 samples.

Results

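The pigment genes of cochlear melanocytes were examined in whole cochleae of 4 miR-183/96 KO mice and 4 control mice at postnatal day 16. The set comprised 10 genes: Tyr, Tyrp1 and Dct, which encode the melanin-forming enzymes, Pmel of the melanosome matrix and Mlana, whose product binds Pmel, Slc45a2, Oca2 and Gpr143 of the melanosome membrane, and the regulators Mitf and Kit. They were chosen by symbol, and all 10 were found, each with exactly 1 array feature, among 22180 genes and 23521 features that carried exactly 1 symbol. Knockout mice lacked the microRNA genes Mir183 and Mir96, and the controls are called wild type in the study's design text. Both cochleae of an animal, with their bony capsule, were pooled into 1 sample and hybridised to an Affymetrix Mouse Gene 2.0 ST array, so each array stands for 1 animal. The strain, coat colour and sex of the animals, and the extent of the deleted segment, were not used here. The p-values weigh differences against the spread between these 8 animals. In the limma fit, the variance of each feature was also drawn toward that of features of similar mean level.

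Melanocytes reach the cochlea from the neural crest and settle in the stria vascularis as intermediate cells, where they help to generate the endocochlear potential that drives hair cell transduction. Tyrosinase starts melanin synthesis from tyrosine, and dopachrome tautomerase (Dct) and Tyrp1 act on later intermediates inside the melanosome. Mitf is the transcription factor that activates most melanocyte pigment genes, and Kit is the receptor through which Kit ligand sustains melanocyte precursors. Loss of either regulator in mice removes strial melanocytes and causes deafness. Mitf has also been reported as a target of miR-96 and miR-182. Because whole cochleae were used, fewer melanocytes and less RNA per melanocyte cannot be told apart.

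The mature microRNAs of the cluster are shown because the knockout targets them and their seeds (bases 2 to 8, in capitals) set which transcripts each can pair with. All 3 lie on the minus strand of chromosome 6 in the RefSeq sequences of GRCm38.p6, at chr6:30169711-30169732 for miR-183, chr6:30169506-30169528 for miR-96 and chr6:30165962-30165986 for miR-182. The seeds are 3 different sequences, and the labels do not name Mir182 as deleted.
mmu-miR-183-5p: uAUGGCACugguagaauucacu
mmu-miR-96-5p: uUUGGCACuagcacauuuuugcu
mmu-miR-182-5p: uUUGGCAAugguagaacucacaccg

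The promoters of the 3 enzyme genes are shown because Mitf acts through a short element, CATGTG, that they share and that links the regulator in this set to its targets. Windows from 250 bases before to 50 bases after the RefSeq start site (GRCm38.p6) were given for 6 of the 10 genes, in 9 windows. CATGTG, read on both strands, occurred in windows of Tyr, Tyrp1, Dct and Oca2, and in 14.2% of all 32851 windows. The longer form TCATGTGCT, which contains CATGTG, occurred in Tyr, Tyrp1 and Dct and in 0.408% of all windows, also on both strands. The related element CACGTG was in 0 of the 9 windows and in 7.15% of all windows. The stretches below run 5′ to 3′ on the strand of the gene, with CATGTG in capitals, and its first base lies 21 bases before the start site in Tyr (chr7:87493513-87493560, minus strand), 46 before it in Tyrp1 (chr4:80834140-80834199, plus strand) and 150 before it in Dct (chr14:118052364-118052423, minus strand). A match describes letters and does not show that Mitf bound there.
Tyr: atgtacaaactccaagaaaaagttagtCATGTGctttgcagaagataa
Tyrp1: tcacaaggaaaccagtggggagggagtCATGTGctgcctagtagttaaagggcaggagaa
Dct: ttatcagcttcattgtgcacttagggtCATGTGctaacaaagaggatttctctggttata

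Expression is given on the log2 scale of the authors' RMA values, and each difference is knockout minus control on that scale, with the standard error (SE) and 95% interval of a limma fit across all 23521 features. A feature was called when its p-value, adjusted over all features by the Benjamini-Hochberg method, was under 0.05. Array medians ran from 5.10 to 5.28, and arrays correlated with each other at 0.947 to 0.976. Mir96 read 4.01 to 4.31 in knockout and 5.26 to 6.23 in control animals, so this gene separated the groups as labelled. Mir183, also targeted, read 1.82 to 2.40 in knockout and 2.23 to 2.84 in control animals, so its dim feature overlapped between the groups (difference -0.33, limma adjusted p = 0.398) and did not check the labels. Mir182 was at 0.35 (limma adjusted p = 0.364). Skeletal muscle genes varied widely between arrays, with a mean level of 5.38 to 6.87 over 7 genes in knockout and 6.65 to 8.87 in control animals, and differences of -1.67 for Myh4, -1.30 for Mylpf and -0.90 for Actn3 that were not called. A further 9 cochlear genes were read as a check of the tissue. Their mean level was 6.66 to 6.92 in knockout and 6.76 to 6.97 in control animals. Coch of the spiral ligament was at -0.35, Otos at -0.24 and the hair cell factor gene Pou4f3 at -0.10. By sign 6 of the 9 read lower and 3 higher, and none was called. Those higher were Tecta at 0.10, Myo7a at 0.04 and Slc26a5 at 0.02. Coch and Otos lay in the highest decile of mean level, whose median difference over features was -0.21. No detection call was used, so a dim feature such as that of Tyr could not be separated from background.

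No pigment gene passed the test between knockout and control cochlea. In the limma fit 0 of 10 were called, against 0.0128% of all features tested, and 0 of 10 had an unadjusted p under 0.05, against 14.3% of all features. The adjusted p-values ran from 0.416 for Dct to 0.974 for Mitf. By sign 5 genes read higher in knockout and 5 lower, beside 52.4% and 47.6% of all features, and the groups overlapped in every one of the 10, while they did not overlap in 5.96% of all features. The median difference of the 10 genes was 0.03, beside 0.01 over all features, and their median absolute difference was 0.13, beside 0.15.

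The enzyme genes came first. Dct had the largest difference of the set, at -0.27 (SE 0.15, 95% interval -0.59 to 0.05, limma adjusted p = 0.416). Dct read 7.55, 7.09, 6.70 and 7.17 in knockout replicates 1 to 4 and 7.39, 7.45, 7.28 and 7.46 in control replicates 1 to 4. Knockout replicates 2, 3 and 4 lay below every control value, and knockout replicate 1 lay above every control value. The mean was 7.13 ± 0.35 for knockout and 7.40 ± 0.08 for control animals (SD, n = 4). The size rested on single knockout animals: the difference was -0.41 without replicate 1 (adjusted p = 0.396) and -0.13 without replicate 3 (adjusted p = 0.732), and it was called in neither case.

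Tyrp1, whose product stabilises tyrosinase and acts late in melanin synthesis, read 5.03, 4.73, 4.67 and 4.81 in the 4 knockout replicates and 4.94, 4.83, 4.92 and 4.68 in the controls. The highest value was in knockout replicate 1 and the lowest in knockout replicate 3, as in Dct, and the control values lay between 4.68 and 4.94. The difference was -0.03 (SE 0.12, 95% interval -0.29 to 0.23, limma adjusted p = 0.913). Tyr, the gene of the rate-limiting enzyme, read 3.71, 3.36, 3.74 and 3.82 in knockout and 3.31, 3.71, 3.62 and 3.48 in control animals. The groups covered almost the same range, with a difference of 0.13 (SE 0.14, 95% interval -0.18 to 0.43, limma adjusted p = 0.675). The 3 genes that share TCATGTGCT in their promoter windows were not called. Their signs were mixed as deposited, while after cyclic loess all 3 were negative, at -0.016 for Tyr, -0.15 for Tyrp1 and -0.12 for Dct. The median over all features was also below 0 after cyclic loess, at -0.03.

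**Figure D1:**
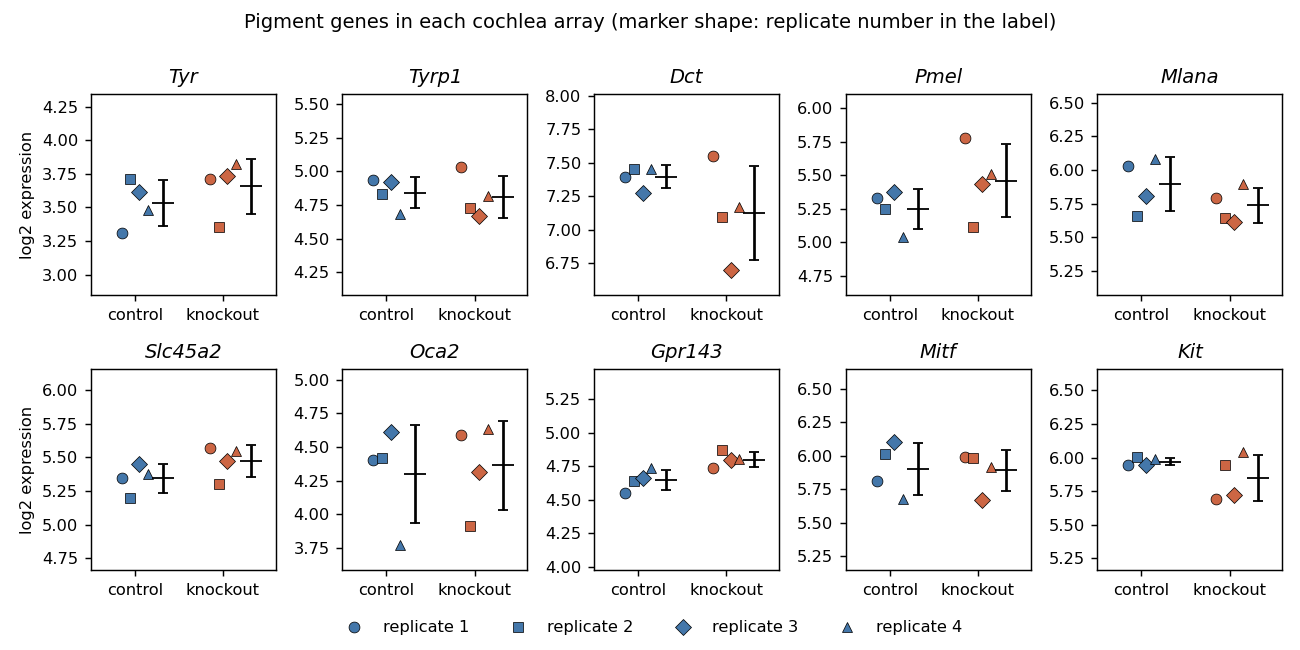
Log2 expression of the 10 pigment genes in each of the 8 arrays, 1 panel per gene, with control animals in blue and knockout animals in orange. Each marker is 1 animal, its shape gives the replicate number in the label, bars are the mean and SD of 4 animals, and every panel spans 1.5 log2 units. The 2 groups overlap in all 10 panels, and the knockout animals are spread over 6.70 to 7.55 in Dct against 7.28 to 7.46 in the controls.

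Pmel and Mlana differed in opposite directions by sign. Pmel, which encodes the amyloid fibril protein on which melanin is laid down, read 5.78, 5.12, 5.44 and 5.51 in knockout and 5.33, 5.25, 5.38 and 5.04 in control animals. Knockout replicates 1, 3 and 4 lay above every control value and knockout replicate 2 lay among the controls. The difference was 0.21 (SE 0.14, 95% interval -0.10 to 0.52, limma adjusted p = 0.487), and it was 0.32 without knockout replicate 2 (adjusted p = 0.217) and 0.10 without knockout replicate 1 (adjusted p = 0.766). Mlana, a small melanosome protein that binds Pmel, read 5.79, 5.64, 5.61 and 5.89 in knockout and 6.03, 5.66, 5.81 and 6.08 in control animals. Control replicates 1 and 4 were above all knockout animals and control replicates 2 and 3 were among them. Its difference was -0.16 (SE 0.12, 95% interval -0.43 to 0.11, limma adjusted p = 0.540).

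Slc45a2, Oca2 and Gpr143 all read higher in knockout cochlea by sign. Gpr143, a receptor of the melanosome membrane that controls melanosome size, came closest to a separation of the groups, at 4.74, 4.87, 4.79 and 4.80 in knockout and 4.55, 4.64, 4.66 and 4.74 in control animals. The lowest knockout value, 4.736, lay just under the highest control value, 4.738. Its SD within groups was only 0.07, and the SE below also draws on the variance of other features. The difference was 0.15 (SE 0.11, 95% interval -0.08 to 0.38, limma adjusted p = 0.505). Features in the same decile of mean level as Gpr143 had a median difference of 0.11, and after cyclic loess Gpr143 was at 0.03.

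Slc45a2, a melanosome transporter whose loss lightens the coat, read 5.57, 5.30, 5.48 and 5.55 in knockout and 5.35, 5.20, 5.45 and 5.38 in control animals. Knockout replicates 1, 3 and 4 lay above every control value, and knockout replicate 2 lay below 3 of the 4 controls. The difference was 0.13 (SE 0.11, 95% interval -0.11 to 0.37, limma adjusted p = 0.582). Oca2, the pink-eyed dilution gene, which sets melanosome pH, read 4.59, 3.91, 4.31 and 4.64 in knockout and 4.40, 4.42, 4.61 and 3.77 in control animals. Each group held 1 low animal, knockout replicate 2 and control replicate 4, and the SD was 0.33 in knockout and 0.37 in control animals. Oca2 had the largest error of the set, with a difference of 0.06 (SE 0.20, 95% interval -0.36 to 0.48, limma adjusted p = 0.891), and its sign turned after cyclic loess (-0.08) and after median-centring (-0.02).

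Of the regulators, Mitf had the smallest difference of the 10 genes. It read 5.99, 5.98, 5.67 and 5.92 in knockout and 5.81, 6.01, 6.10 and 5.67 in control animals. The 2 lowest values, knockout replicate 3 and control replicate 4, came from different groups, and the means were 5.89 ± 0.15 and 5.90 ± 0.19 (SD, n = 4). The difference was -0.01 (SE 0.13, 95% interval -0.28 to 0.26, limma adjusted p = 0.974). The upper bound corresponds to a 1.20-fold rise in the whole-cochlea RNA value of this reported microRNA target. It sets no limit on a rise within melanocytes or of the protein, neither of which was measured. Transcripts of Mitf start from several first exons, of which 3 start windows were in the RefSeq table, and the feature gives 1 value for the gene, so the form used in melanocytes was not measured apart.

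Kit read 5.69, 5.94, 5.72 and 6.04 in knockout and 5.94, 6.001, 5.95 and 5.99 in control animals. The controls lay within a narrow band, with an SD of 0.03 against 0.17 in knockout animals, and knockout replicates 1 and 3 lay below it while replicate 4 was above it. The difference was -0.12 (SE 0.11, 95% interval -0.36 to 0.12, limma adjusted p = 0.601). Kit is also made by mast cells and blood progenitors, whose markers are given further on.

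The intervals state how large a change these arrays leave room for. For 8 of the 10 genes the 95% interval lay within 0.5 of 0 on the log2 scale in both directions, which held for 64.5% of all features. The exceptions were Dct, whose lower bound allowed a level 1.51-fold lower in knockout cochlea, and Pmel, whose upper bound allowed a level 1.43-fold higher. All 10 intervals lay within 1 of 0. They were computed gene by gene and not widened for the number of genes.

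**Figure D2:**
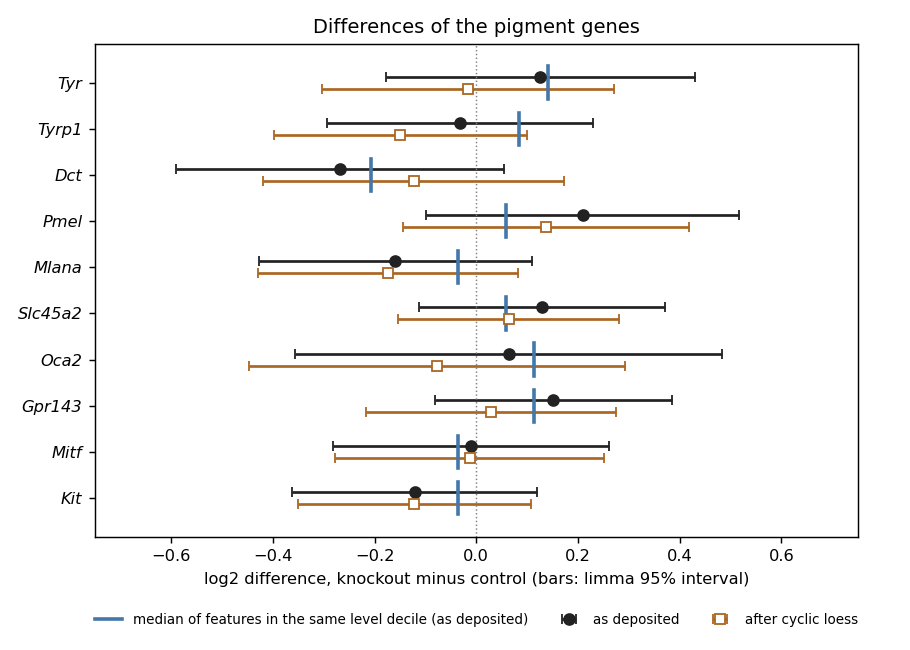
Log2 difference (knockout minus control) of each pigment gene with its limma 95% interval, as deposited (filled circles) and after cyclic loess (open squares), beside the median difference of all features in the same decile of mean level (blue bars). All 20 intervals include 0, the deposited differences run from -0.27 for Dct to 0.21 for Pmel, and both Tyr (0.13) and Dct (-0.27) lie near the medians of their deciles (0.14 and -0.21).

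The differences of all features varied with their mean level. The median difference went from 0.13 in the lowest decile of mean level to -0.21 in the highest. The SD of the values within an array was 1.64 to 1.66 in the knockout and 1.68 to 1.75 in the control arrays. The knockout arrays thus had the narrower spread of values as a group, and its source was not tested. Tyr lay in the decile with a median of 0.14 and was at -0.02 relative to it, and Dct lay in the decile with a median of -0.21 and was at -0.06 relative to it. Relative to its decile Pmel was at 0.15, the furthest of the 10, while Mlana and Tyrp1 were each at -0.12. After cyclic loess, 3 of the 10 genes read higher and 7 lower, and 0 were called. Dct was at -0.12, Pmel at 0.14, Tyrp1 at -0.15, Mlana at -0.17 and Tyr at -0.02. The median after cyclic loess was -0.05 over the 10 genes and -0.03 over all features. Over features it was still 0.02 in the lowest decile and -0.07 in the highest.

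Variation between animals was examined within the groups, from deviations from the group means over the 8 arrays. Pmel and Oca2 had the highest Pearson r on the deposited values (r = 0.87, exact permutation p = 0.0104, and Spearman rho = 0.81, exact permutation p = 0.0312). Pmel and Tyrp1 followed and had the highest rho (Pearson r = 0.84, exact permutation p = 0.0330, and Spearman rho = 0.90, exact permutation p = 0.00868). Without the 2 arrays farthest from the median of Pmel, knockout replicates 1 and 2, these values of r were 0.95 and 0.87. The lowest was Pmel with Gpr143 (Pearson r = -0.78, exact permutation p = 0.0278, and Spearman rho = -0.62, exact permutation p = 0.118), at -0.69 without those 2 arrays. Over all 45 pairs the median r was 0.15, 27 were positive, and 0 passed after adjustment over the pairs (lowest adjusted p 0.469 for r and 0.391 for rho). The permutations were made within groups and two-sided, with 576 arrangements, so the smallest possible permutation p was 0.00174. A single pair at that p could not have passed adjustment over 45 pairs. The count of 0 therefore does not show that the genes vary independently. Dct and Tyrp1, at r = 0.64 (exact permutation p = 0.196, rho = 0.21 at p = 0.658), turned to -0.49 without knockout replicates 1 and 3, so that value rested on those animals. After cyclic loess the order changed, with Dct and Tyrp1 highest (r = 0.88), Pmel and Oca2 at 0.83, Pmel and Tyrp1 at 0.66 and Tyrp1 and Oca2 at 0.43 after 0.73 as deposited. Gpr143 with Tyrp1 went from -0.74 to -0.20 after cyclic loess, while Gpr143 with Pmel was at -0.71 there. Gpr143 with Oca2 went from -0.70 to -0.82 after cyclic loess, but to 0.23 without control replicate 4 and knockout replicate 2.

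**Figure D3:**
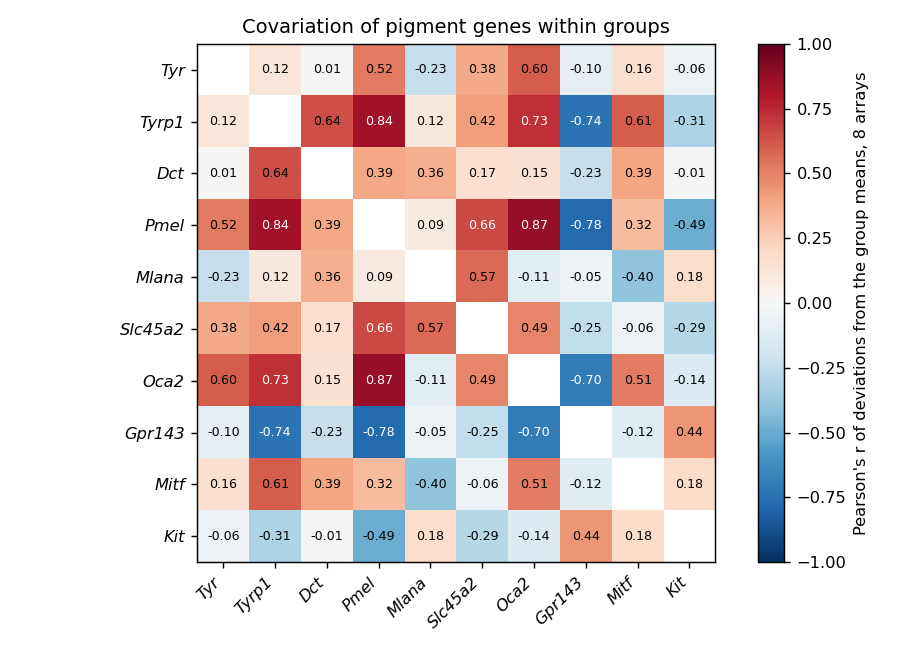
Pearson's r between the 10 pigment genes, from deviations from the group means over 8 arrays, with red for positive and blue for negative values. Pmel, Tyrp1 and Oca2 form the reddest block (0.73 to 0.87), and Gpr143 is negative with each of them (-0.78 to -0.70). Several of these values change with the arrays or the normalization as given in the text. No pair passed after adjustment over 45 pairs, which a single pair could not have done with 576 arrangements.

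The animals did not fall in 1 order across the set. Knockout replicate 1 was the highest knockout animal in 5 of the 10 genes and the lowest in 2, and knockout replicate 4 was the highest in 4 and the lowest in 0. Knockout replicates 2 and 3 were each the lowest in 4. The mean level of Tyr, Dct, Pmel, Tyrp1 and Mlana was 5.57, 5.19, 5.23 and 5.44 in the knockout animals and 5.40, 5.38, 5.40 and 5.35 in the controls. The knockout animals thus lay on both sides of a narrow control range. The SD was larger in knockout than in control animals in 6 of the 10 genes, and in 47.6% of all features.

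The features whose deviations most resembled the mean of those 5 genes over the 8 arrays were Cend1 (r = 0.99), S100b (0.98), Tmem218 (0.98), Vmn1r19 (0.98), Setmar (0.97) and Gm20740 (0.97). They are the highest of all features tested and are given as a description. S100b, a calcium-binding protein of Schwann cells and melanocytes, differed by -0.59 between the groups and was not called (limma adjusted p = 0.301).

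Other genes of melanocytes and melanosomes were read from 3 lists, of which 45 of 48 genes were measured. In the limma fit 0 of the 45 were called. The groups did not overlap in 4 of the 45, or 8.89%, near the 5.96% of all features. These were Pax3, Myo5a, Bloc1s1 and Bloc1s3. At an unadjusted p under 0.05 there were 8 of the 45, or 17.8%, close to the 14.3% of all features. Of these 8, Pax3 read higher in knockout cochlea, where 7.04% of all features did so. The other 7, or 15.6% of the 45, read lower, where 7.25% of all features did so. After cyclic loess the unadjusted limma p stayed under 0.05 for Myo5a (0.0050), Atp7a (0.034) and Clcn7 (0.035). It was 0.094 for Ap3d1, 0.099 for Bloc1s3, 0.13 for Bloc1s1 and 0.088 for Irf4. Ap3d1 lay in a decile of mean level with a median of -0.21, and Bloc1s3, Bloc1s1 and Irf4 in one with -0.16. Over all 45 genes the median difference was -0.02, and -0.08 after cyclic loess, beside 0.01 and -0.03 over all features.

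Among ligands, receptors and transcription factors, 0 of 15 measured genes were called. Pax3, a transcription factor that acts upstream of Mitf with Sox10, read 6.28, 5.98, 6.21 and 6.04 in knockout and 5.88, 5.75, 5.79 and 5.61 in control animals. Every knockout value lay above every control value, but the difference of 0.37 (SE 0.11) did not pass (limma adjusted p = 0.301), nor did the 0.37 found after cyclic loess (adjusted p = 0.390). Sox10 was at 0.04, Ednrb, the endothelin receptor of melanocyte precursors, at 0.06, its ligand gene Edn3 at 0.10, and the melanocortin receptor gene Mc1r at -0.01. Kitl, which encodes the ligand of Kit, was at -0.28 (SE 0.15, limma adjusted p = 0.407), with 5.31 to 5.73 in knockout and 5.38 to 6.08 in control animals. Irf4, a regulator of Tyr that B cells also express, was at -0.33 and Snai2, a neural crest factor, at -0.23, and neither was called.

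Among genes of melanosome biogenesis and transport, 0 of 23 were called, with a median of -0.04 (-0.09 after cyclic loess), and 17 read lower by sign. Myo5a, the myosin that carries melanosomes along actin and is also abundant in neurons, read 5.50, 5.89, 5.83 and 5.80 in knockout and 6.005, 6.30, 6.11 and 6.15 in control animals. Its groups did not overlap, and the difference of -0.39 (SE 0.12) did not pass (limma adjusted p = 0.301). Its partners gave values near or above 0, with Rab27a at -0.03 and Mlph, which links Rab27a to the myosin, at 0.24. Ap3d1 and Bloc1s3, subunits of sorting complexes for melanosome cargo in many cell types, were at -0.32 and -0.31 and were not called. Among 7 genes of melanosome ion and solute transport 0 were called and the median was -0.17 (-0.12 after cyclic loess). The copper transporter gene Atp7a, which supplies tyrosinase with copper, was at -0.31, the chloride transporter gene Clcn7 at -0.27 and the cation channel gene Mcoln3, which hair cells also express, at -0.19.

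Other cells of the stria were compared to place the pigment genes in their tissue. Genes of intermediate cells that are not part of pigment synthesis had differences of 0.04 for the potassium channel gene Kcnj10, -0.07 for Met and -0.11 for Cd44, and 0 of 3 were called. The level over these 3 genes was 6.03 to 6.18 in knockout and 6.02 to 6.38 in control animals. Arrays of whole cochlea do not show in which cells a gene was read, so the values are not particular to the stria. In marginal cells, which secrete potassium, 0 of 9 were called, the median was -0.22, and the cotransporter gene Slc12a2 was at -0.41 (SE 0.16, limma adjusted p = 0.305), in the decile of mean level whose median was -0.21. After cyclic loess the list median was -0.13 and Slc12a2 was at -0.25, and Esrrb, a nuclear receptor gene of these cells, was at -0.43 after -0.33 as deposited. As deposited, the endocytic receptor gene Lrp2 was at -0.30 and the potassium channel subunit gene Kcne1 at -0.28. By sign 7 marginal cell genes read lower and 2 higher, with Kcnq1 at -0.08, Heyl at -0.01, Abcg1 at 0.03 and Bsnd at 0.04. Basal cell genes had a median of -0.06 over 4 genes (0.014 after cyclic loess) and spindle and root cell genes 0.07 over 5, with 0 called in either. The tight junction genes Tjp1 and Cldn11 of basal cells were both at -0.21 and Nr2f2 at 0.14, and among spindle and root cell genes Kcnj16 was at 0.15, P2rx2 at 0.10 and the anion exchanger gene Slc26a4 at 0.07. Anxa1 and Dpp10 of the spindle and root cell list were at -0.06 and -0.02.

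**Figure D4:**
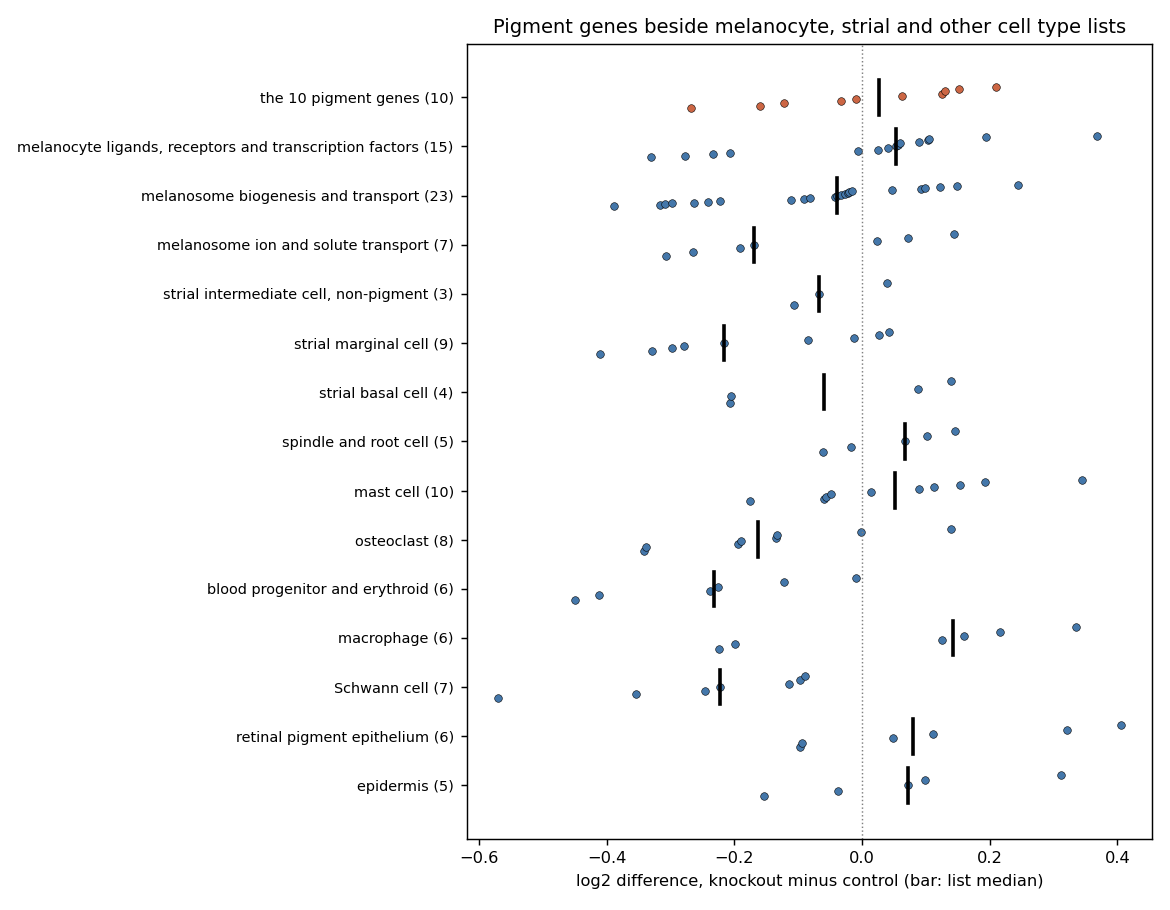
Log2 difference (knockout minus control) of each measured gene, by list, with the number of genes in brackets and a black bar at the list median. The 10 pigment genes (orange) lie between -0.27 and 0.21 around a median of 0.03, the marginal cell list has a median of -0.22, and no gene drawn was called in the fit across all features.

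Cell types that share Kit, Mitf or Sox10 with melanocytes were also read. Over 10 mast cell genes the level was 4.26 to 4.45 in knockout and 4.25 to 4.35 in control animals, with a median difference of 0.05 and with Mrgprb1 at 0.34, Fcer1a at 0.19 and Tpsab1 at 0.15. By sign 6 mast cell genes read higher and 4 lower, the latter including Hdc at -0.18 and Cpa3 at -0.06. Mrgprb1 and Fcer1a lay in the lowest decile of mean level, whose median difference was 0.13. Over 6 blood progenitor and erythroid genes the level was 6.95 to 7.26 and 7.05 to 7.60, with a median of -0.23 and with Rhag at -0.45, Slc4a1 at -0.41 and Tal1 at -0.24. Over 8 osteoclast genes, a lineage in which Mitf is also active, it was 7.31 to 7.67 and 7.47 to 7.75. Their median was -0.16, with Oscar and Atp6v0d2 at -0.34 and Acp5 at -0.19. By sign 7 osteoclast genes read lower, including Ocstamp at -0.002, and Tnfrsf11a read higher at 0.14. Acp5, Atp6v0d2, Rhag and Slc4a1 lay in the highest decile of mean level, whose median difference was -0.21. Over 6 macrophage genes the level was 6.63 to 6.68 and 6.51 to 6.67, with a median of 0.14 and with Cx3cr1 at 0.34, Cd163 at 0.22 and Csf1r at -0.20. The Schwann cell list, which shares Sox10, had a median of -0.22 over 7 genes, with the myelin genes Mal at -0.57, Mag at -0.35 and Mbp at -0.25. After cyclic loess the medians were -0.02 for mast cell, -0.14 for blood progenitor and erythroid, -0.10 for osteoclast, 0.10 for macrophage and -0.14 for Schwann cell genes, with Rhag at -0.29 and Slc4a1 at -0.28. The part of these cells in the values of Kit and Mitf was not tested.

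Lists for pigmented or pigment-bearing tissues outside the cochlea gave levels of 4.49 to 4.56 in knockout and 4.29 to 4.54 in control animals for 6 genes of the retinal pigment epithelium, and 4.63 to 4.94 and 4.62 to 4.82 for 5 epidermal genes. Their medians were 0.08, with Lrat at 0.41, Rgr at 0.32 and Rpe65 at 0.11, and 0.07, with Dsg3 at 0.31, Krt10 at -0.15 and Krt14 at 0.10. By sign 4 genes of the retinal pigment epithelium read higher and 2 lower, the latter being Best1 at -0.09 and Rdh5 at -0.10. After cyclic loess both medians turned negative, to -0.04 and -0.07, with Rpe65 at -0.011 and Krt14 at -0.015. In these 5 lists of other cells and both of these, 0 genes were called.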

How the data were processed

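The deposited values are log2 expression values that the authors obtained with RMA in a gene-level analysis with Affymetrix Expression Console, per the labels. RMA corrects background, applies quantile normalization and summarises a feature's probes. Its version and the genome build are not stated in the sources used here. RNA input was 200 ng.

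The table held 41345 features, of which 23521 carried exactly 1 symbol in the platform annotation, 1814 several and 16010 none. Where a symbol had several features, the one with the highest mean was used. The genotypes were compared with limma 3.58.1 (R 4.3.3), by lmFit and by eBayes with an intensity trend, a step tested on simulated data. There a log2 change of 1 was called in 100% of 50 features, 0.6 in 64% and 0.3 in 2%, with 9 false calls. Changes of 0.3 would thus mostly go uncalled. Deciles are of mean level over the 8 arrays.

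The members and lists were chosen with earlier results of these data known. The naming rule took all members, called list genes, the 3 smallest p-values of each list, genes tied to a named member and the 6 most alike features. Alternatives were a replicate block, no trend, other feature sets, median-centring, cyclic loess and leaving out each array. Scan dates and batches were not used. The number of arrays limits the precision.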

Additional observations from a re-analysis of the deposited data

How the results depend on the processing

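Pigment genes were called in 0 of 14 alternatives, and the lowest adjusted p in any of them was 0.217 (Pmel without knockout replicate 2). At an unadjusted p under 0.05, Dct appeared without knockout replicate 1 and Pmel without knockout replicate 2. The count over all features was 3, and it was 1 with all 41345 features of the table. With features of a mean of at least 5, without the trend and after cyclic loess it was 2, and leaving out each array gave 1 to 21, the 21 without control replicate 3 and the 1 without control replicate 1. Signs turned in 4 genes, none of them called. Oca2 read -0.020 after median-centring and -0.077 after cyclic loess, and Tyr -0.016 after cyclic loess. Leaving out each array gave -0.11 to 0.21 for Oca2, -0.086 to 0.063 for Mitf and -0.11 to 0.015 for Tyrp1. With the replicate number as a block, 0 pigment genes and 3 features were called. Same-numbered arrays of the 2 groups correlated at 0.06, 0.21, 0.21 and -0.29 in their deviations. Arrays with different numbers ran from -0.35 to 0.40. These values do not settle whether the numbers pair the animals, which the labels do not state. The filter on dim features left 6 pigment genes, and the mean over several features could not be run because each gene has 1. No detection limit was used, which limits what Tyr and the other dim features can show.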
